A study of Mus musculus with 6 samples.

Results

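The YAP/TEAD system was followed through 10 genes, picked by symbol from the 22134 genes of the deposited expression table. These were the secreted targets Ccn1 and Ccn2, the intracellular targets Ankrd1 and Amotl2, the coactivators Yap1 and Wwtr1, and the DNA-binding factors Tead1, Tead2, Tead3 and Tead4. RNA came from adipose tissue of wild-type (WT) mice: 3 libraries of creeping fat, taken after the colon had been cauterized repeatedly, and 3 libraries of mesenteric adipose tissue without injury, called controls. Creeping fat is mesenteric fat that wraps around a diseased gut, as in Crohn's disease. Age, sex and strain are not given in the sources used here. Nor is it stated that each library is a different mouse; the p-values describe the spread among these libraries, part of which may be technical. Values are FPKM, which divide a gene's reads by its length and its library's size, so that levels of different genes can be set side by side.

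Depth and tissue makeup were read from the whole table. The FPKM values gave library totals of 32837045 to 36158204 reads in creeping fat and 31186018 to 43415696 reads in controls. As shares of all FPKM, 6 adipocyte marker genes summed to 0.169% to 0.36% in creeping fat and 0.866% to 2.36% in controls, and all 6 fell. The sum of 6 fibroblast marker genes was 1.82% to 2.57% in creeping fat and 0.174% to 0.201% in controls, and all 6 rose. Transcripts of other organs were present too: 8 seminal vesicle genes summed to 4.87% to 8.78% in creeping fat and to no more than 0.0156% in the controls, and all 8 rose. For 10 exocrine pancreas genes, 7 of which fell, the sum was 0.00203% to 1.28% in creeping fat, where creeping fat 2 was the highest, and 3.64% to 9.22% in controls. Of 6 macrophage markers 5 rose, with a sum of 0.222% to 0.286% in creeping fat and 0.0519% to 0.146% in controls, and of 6 endothelial markers 2 fell, with a sum of 0.0484% to 0.0615% in creeping fat and 0.0691% to 0.0913% in controls. The markers of the labelled adipose tissue were detected in every library. Control 2 and creeping fat 2 stood apart from their groups on the principal components PC2 (19.7% of the variance) and PC3 (7.34%), in this order. These shares moved with the groups beside every result below, and their part in those results was not tested. In such bulk samples, fewer cells of a type and less RNA per cell cannot be told apart.

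YAP, encoded by Yap1, and TAZ, encoded by Wwtr1, are coactivators that carry no DNA-binding domain of their own. The Hippo kinases phosphorylate them and hold them in the cytoplasm; on stiff matrix, under stretch or at low cell density they enter the nucleus and act through the TEAD factors, which bind the MCAT motif. Ccn1 and Ccn2 encode secreted matricellular proteins, also known as CYR61 and CTGF, that bind integrins, and they are among the target genes most used as a readout of the pathway. YAP and TAZ are regulated largely by phosphorylation and location in the cell, which transcript levels do not show.

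Promoter windows are shown for the 3 target genes with a sequence in the RefSeq table, because these are the genes in which TEAD factors are known to act. Each window is the 250 bases before the annotated start of transcription in GRCm38.p6, written 5′ to 3′ on the strand of the gene. Capitals mark the core of the MCAT motif, GGAATG or its reverse complement CATTCC, and were found by a search of both strands.
Ccn1, chr3:145649986-145650235, minus strand: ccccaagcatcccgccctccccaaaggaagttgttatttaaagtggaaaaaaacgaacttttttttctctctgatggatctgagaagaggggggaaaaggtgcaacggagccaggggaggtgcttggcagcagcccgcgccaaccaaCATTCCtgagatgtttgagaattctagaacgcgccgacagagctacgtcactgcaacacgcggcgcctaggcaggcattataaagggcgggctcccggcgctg
Ankrd1, chr19:36119845-36120094, minus strand: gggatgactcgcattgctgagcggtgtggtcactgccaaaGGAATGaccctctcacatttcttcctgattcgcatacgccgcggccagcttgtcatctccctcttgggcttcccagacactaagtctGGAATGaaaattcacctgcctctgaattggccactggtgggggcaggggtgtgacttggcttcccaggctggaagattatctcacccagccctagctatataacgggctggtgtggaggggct
Amotl2, chr9:102717554-102717803, plus strand: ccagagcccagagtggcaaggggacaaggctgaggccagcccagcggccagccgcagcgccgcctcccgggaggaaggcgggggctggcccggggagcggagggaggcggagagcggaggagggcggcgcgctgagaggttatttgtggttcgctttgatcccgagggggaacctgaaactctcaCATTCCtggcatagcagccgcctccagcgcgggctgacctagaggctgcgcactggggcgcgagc

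The motif begins at base -103 before the start of Ccn1, at bases -210 and -123 before that of Ankrd1 and at base -65 before that of Amotl2. Of all 32851 windows of the same length in the table, 12.6% held at least 1 such motif and 1.02% held 2 or more. Windows were found for 7 of the 10 genes, and 6 of these held the motif in at least 1 window: Yap1, Wwtr1 and Tead3 were the others, and Tead2 had none. These 7 genes had 10 windows, with more than 1 for Wwtr1 and for Tead3. A count of genes is therefore not comparable with the share of windows. None of the windows of the 7 genes held a CArG box, the motif of the serum response factor SRF, which 1.47% of all windows held. A match is a description of letters and not a binding site.

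All 10 genes passed the expression filter, at least 1 FPKM in at least 3 libraries, and were tested among the 12812 genes that passed it (limma on log2(FPKM + 1), Benjamini-Hochberg adjustment over all of these, called at an adjusted p under 0.05). Ccn1, Ccn2 and Tead3 rose in creeping fat, and none of the 10 genes fell in limma; 1 lower gene, Tead4, had an unadjusted p under 0.05, and limma's voom on read counts recovered from the FPKM values called 0 lower. The 3 rises among 10 genes stand beside 9.35% of all tested genes called higher and 6.81% called lower. Creeping fat and control libraries did not overlap in Ccn1, Ccn2 and Tead3, where creeping fat was higher, and in Tead4, where it was lower; over all tested genes 20.2% and 16.9% were apart in these directions. An unadjusted p under 0.05 was found for 5 of the 10 genes. The share of all tested genes under this unadjusted threshold is not given here, so this count has no background to stand beside. The median log2 fold change of the 10 genes was 0.25, against 0.02 over all genes tested. A fold change is given below as creeping fat minus control on the log2(FPKM + 1) scale, with limma's standard error after the ± sign.

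**Figure D1:**
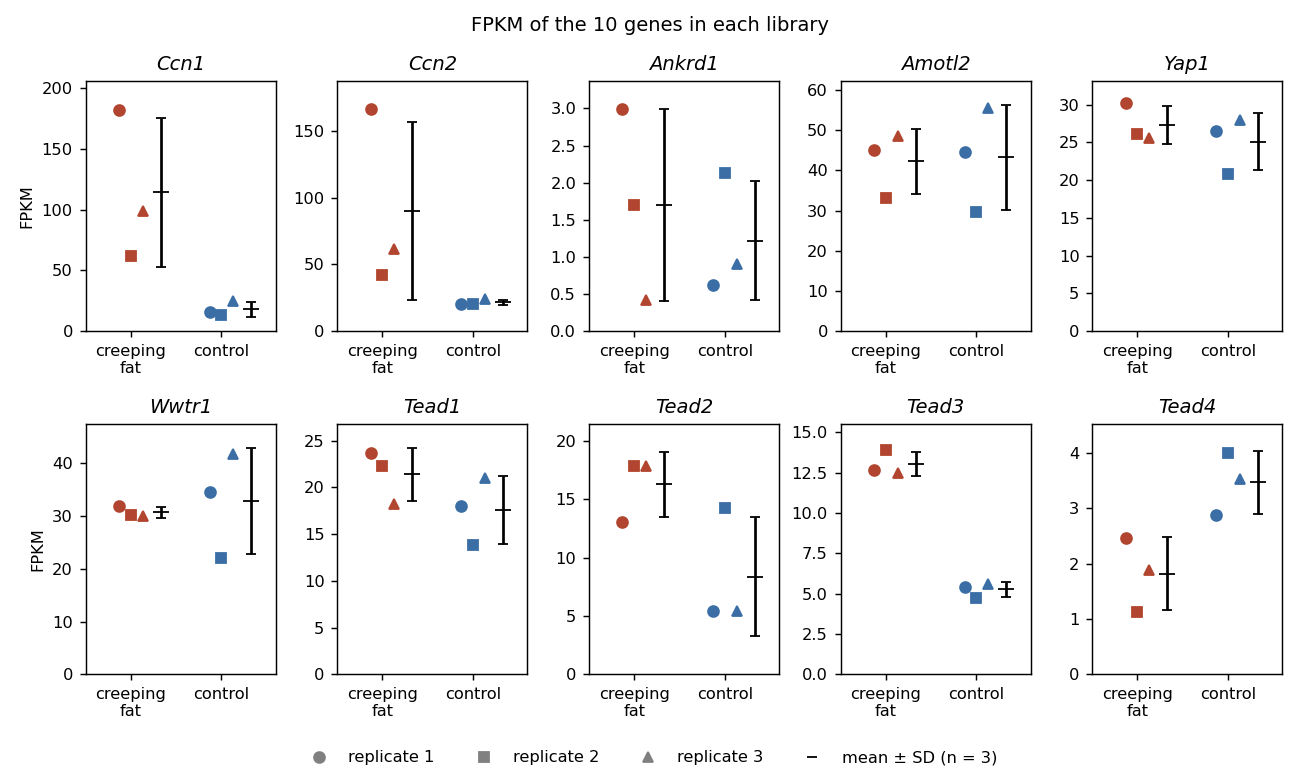
FPKM (linear axes from 0) of the 10 genes in each library, with creeping fat in red on the left and controls in blue on the right; black marks are the mean and SD of 3 libraries. Ccn1, Ccn2 and Tead3 lie higher in every creeping fat library than in any control, Tead4 lies lower, and the other genes overlap.

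The secreted CCN targets had the largest fold changes of the 10 genes. Ccn1 stood at 182, 62.2 and 98.7 FPKM in creeping fat libraries 1 to 3, against 15.9, 13.2 and 24.7 FPKM in control 1 to 3. All creeping fat libraries lay above all controls, and creeping fat 1 was the highest, at 2.92 times the lowest of its group. The means were 114 ± 61.3 FPKM in creeping fat and 17.9 ± 5.99 FPKM in controls (SD, n = 3 each), a ratio of 6.37. Ccn1 rose by 2.52 ± 0.41 on the log2 scale (adjusted p = 0.00945), and the value was 2.11 without creeping fat 1 (adjusted p = 0.0256). Ccn1 lies on chromosome 3 from 145646976 to 145649981 on the minus strand (GRCm38, GENCODE M21), and no exon of another gene overlaps its exons there.

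Ccn2 followed the same order of libraries within creeping fat. It stood at 166, 42.2 and 61.4 FPKM in creeping fat libraries 1 to 3, against 20.7, 20.1 and 24.0 FPKM in control 1 to 3. The controls lay close together, while creeping fat 1 was 3.92 times creeping fat 2. Ccn2 averaged 89.7 ± 66.4 FPKM in creeping fat and 21.6 ± 2.11 FPKM in controls (SD, n = 3 each), a ratio of 4.15. It rose by 1.76 ± 0.46 (adjusted p = 0.0451), close to the threshold. The call was lost with no filter on low values (adjusted p = 0.0801), after median ratio scaling (0.0622), and on leaving out creeping fat 3 (0.0995), control 1 (0.117) or control 3 (0.121). Leaving out creeping fat 1 gave 1.2 (adjusted p = 0.037). Ccn2 lies on chromosome 10 from 24595442 to 24598683 on the plus strand, and 665 of its 2861 exonic bases are shared with the opposite-strand gene Gm15270, so reads of these genes may not be separable.

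The ratio of Ccn1 to Ccn2 was read per library and was not tested. Ccn1 was 1.1, 1.47 and 1.61 times Ccn2 in creeping fat libraries 1 to 3, against 0.769, 0.657 and 1.03 times in control 1 to 3. All creeping fat libraries lay above all controls in this ratio, but creeping fat 1 (1.1) lay close to control 3 (1.03). The sum of Ccn1 and Ccn2 was 347, 104 and 160 FPKM in creeping fat libraries 1 to 3, against 36.6, 33.3 and 48.7 FPKM in control 1 to 3.

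Of the other CCN genes, Ccn4 and Ccn3 rose in creeping fat as well, Ccn5 did not pass, and Ccn6 was not tested. Ccn4, a matricellular gene first described as induced by Wnt signalling and also known as WISP1, stood at 26.3, 30.4 and 14.5 FPKM in creeping fat libraries 1 to 3, against 0.723, 0.647 and 0.711 FPKM in control 1 to 3. It rose by 3.81 ± 0.27 (adjusted p = 0.00069), and by 4.84 with 0.1 in place of the added 1 and 5.02 by voom. Ccn4 was under 1 FPKM in every control, so it passed the expression filter through creeping fat alone. With no filter on low values limma gave an adjusted p of 0.00302. Ccn3, also known as NOV, stood at 123, 35.3 and 23.9 FPKM in creeping fat and 7.54, 8.46 and 7.48 FPKM in controls and rose by 2.45 ± 0.55 (adjusted p = 0.0266); the call was lost with no filter on low values (adjusted p = 0.0537) and on leaving out creeping fat 2, control 1 or control 3 (adjusted p = 0.0569, 0.079 and 0.0966). Leaving out creeping fat 1 gave 1.77 for Ccn3 (adjusted p = 0.0143). Creeping fat 1 was the highest library in Ccn3 as in Ccn1 and Ccn2, but not in Ccn4. Ccn5 stood at 92.5, 19.2 and 18.8 FPKM in creeping fat and 10.5, 4.93 and 3.82 FPKM in controls, with a fold change of 2.28 ± 0.65 that did not pass (adjusted p = 0.0577); it passed without creeping fat 2 and control 2 (2.53, adjusted p = 0.0255). Ccn6 was under the filter, at no more than 0.136 FPKM in any library.

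The intracellular targets did not pass the test. Amotl2 encodes an angiomotin-like protein that binds YAP and TAZ and holds them outside the nucleus, and it is itself a target gene. It stood at 45.1, 33.1 and 48.6 FPKM in creeping fat libraries 1 to 3, against 44.6, 29.6 and 55.6 FPKM in control 1 to 3. The creeping fat libraries lay within the range of the controls, and library 2 was the lowest of each group. The fold change was -0.01 ± 0.26, with a 95% interval of -0.63 to 0.62 (adjusted p = 0.993). This interval lies below the values of Ccn1 and Ccn2; the difference between targets was not tested.

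Ankrd1, which encodes a muscle ankyrin repeat protein that responds to stretch, was expressed at a low level. It stood at 2.99, 1.70 and 0.414 FPKM in creeping fat libraries 1 to 3, against 0.627, 2.13 and 0.90 FPKM in control 1 to 3. The groups overlapped, and the spread within creeping fat was 7.23-fold. The values rest on 24 to 191 reads per library, the fewest of the 10 genes in each of the 6 libraries. The fold change was 0.22 ± 0.42 (95% interval -0.78 to 1.22, adjusted p = 0.785), and it was -0.12 without creeping fat 1. Skeletal muscle is one tissue known to express Ankrd1. Its 7 marker genes summed to 0.00216% to 0.00682% of all FPKM in creeping fat and 0.00217% to 0.00628% in controls. The highest of them was Acta1, at 5.72, 20.6 and 10.8 FPKM in creeping fat libraries 1 to 3. In control 1 to 3 Acta1 stood at 7.19, 5.8 and 20.9 FPKM. Ckm and Tnnt3 reached 2.75 and 1.43 FPKM. Mylpf and the fast myosin genes Myh1, Myh2 and Myh4 stood at no more than 0.712 FPKM in any library. The part of muscle transcripts in the Ankrd1 values was not tested.

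**Figure D2:**
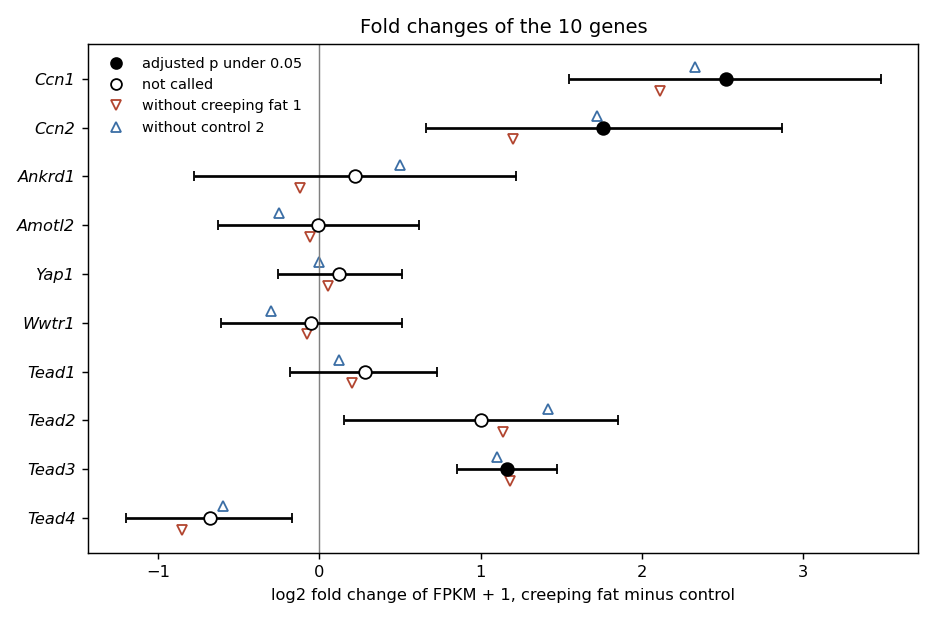
Log2 fold changes of FPKM + 1 (creeping fat minus control) of the 10 genes, with 95% intervals from limma; filled circles passed at an adjusted p under 0.05, and triangles give the value without creeping fat 1 or without control 2. Ccn1, Ccn2 and Tead3 lie above 0 in each of these settings, Tead2 moves to 1.42 without control 2, and Yap1, Wwtr1 and Amotl2 stay between -0.30 and 0.12.

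The coactivators stood at similar levels in both groups. Yap1 stood at 30.2, 26.1 and 25.6 FPKM in creeping fat libraries 1 to 3, against 26.5, 20.8 and 27.9 FPKM in control 1 to 3. The groups overlapped, and the fold change was 0.12 ± 0.16 (95% interval -0.26 to 0.51, adjusted p = 0.674). Wwtr1 stood at 31.9, 30.1 and 30 FPKM in creeping fat libraries 1 to 3, against 34.6, 22.0 and 41.8 FPKM in control 1 to 3. The creeping fat libraries lay within the range of the controls, and control 2 was the lowest library. The fold change was -0.05 ± 0.24 (95% interval -0.61 to 0.51, adjusted p = 0.923), and it was -0.30 without control 2 (adjusted p = 0.111). A p that misses the threshold does not show equal levels; the intervals give the range of changes that these libraries leave possible.

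Wwtr1, the gene of TAZ, stood above Yap1 in every library. Wwtr1 was 1.06, 1.15 and 1.17 times Yap1 in creeping fat libraries 1 to 3, against 1.3, 1.06 and 1.5 times in control 1 to 3. The mean ratio was 1.13 ± 0.0627 in creeping fat and 1.29 ± 0.219 in controls (SD, n = 3 each; exact two-sided permutation p = 0.3), a difference within the spread of the controls. With 3 libraries against 3 this test cannot give a p under 0.1, and 6 such measures of composition were compared.

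Of the TEAD factors, Tead3 rose with little spread in either group. It stood at 12.7, 13.9 and 12.5 FPKM in creeping fat libraries 1 to 3, against 5.43, 4.76 and 5.6 FPKM in control 1 to 3. The groups lay well apart, and the highest library was 1.11 times the lowest in creeping fat and 1.18 times the lowest in controls. The means were 13.0 ± 0.766 FPKM in creeping fat and 5.26 ± 0.445 FPKM in controls (SD, n = 3 each), a ratio of 2.47. Tead3 rose by 1.16 ± 0.13 (adjusted p = 0.00324), the smallest adjusted p of the 10 genes. Tead3 lies on chromosome 17 from 28331671 to 28350817 on the minus strand, with no exon of another gene over its exons.

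Tead2, best known from embryonic and progenitor cells, depended on control 2. It stood at 13.1, 17.9 and 17.9 FPKM in creeping fat libraries 1 to 3, against 5.43, 14.3 and 5.41 FPKM in control 1 to 3. Control 2 lay within the creeping fat values, while the other controls lay far below them. The fold change was 1.00 ± 0.36 and did not pass (adjusted p = 0.108). Without control 2 it was 1.42 (adjusted p = 0.00127), and without creeping fat 2 and control 2 it was 1.35 (adjusted p = 0.00142). With these libraries left out, 22.6% and 21.2% of all tested genes were called higher.

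Control 2 also had the most lymphocyte transcripts, with 7 B and T cell markers at 0.0985% of all FPKM. They stood at 0.0145% to 0.0522% in creeping fat and at 0.0235% and 0.0311% in the other controls, none passed the test, and all were detected. The leukocyte gene Cd37 lies on the opposite strand to Tead2, and 13 of the 4788 exonic bases of Tead2 overlap its exons. Cd37 stood at 28.4, 17.0 and 38.4 FPKM in creeping fat libraries 1 to 3, against 18.8, 71.5 and 25.7 FPKM in control 1 to 3. Control 2 was the highest library in Cd37, and creeping fat 2 was the lowest. The part of lymphocyte transcripts in the Tead2 value of control 2 was not tested.

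Tead1 was the most abundant TEAD gene in creeping fat and in 2 of the 3 controls. It stood at 23.7, 22.3 and 18.2 FPKM in creeping fat libraries 1 to 3, against 18.0, 13.8 and 21 FPKM in control 1 to 3. The groups overlapped, and the fold change was 0.28 ± 0.19 (95% interval -0.18 to 0.73, adjusted p = 0.389). Tead4 was the least abundant, at 2.46, 1.13 and 1.88 FPKM in creeping fat libraries 1 to 3, against 2.88, 4.01 and 3.53 FPKM in control 1 to 3. Every creeping fat library lay below every control, but the fold change of -0.68 ± 0.22 did not pass (adjusted p = 0.0805). Its values rest on 121 to 472 reads per library.

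The 4 TEAD genes together stood higher in creeping fat. Among their shares of the sum the groups lay apart for Tead3 and Tead4 and overlapped for Tead1 and Tead2. The summed level of the 4 genes was 51.9, 55.2 and 50.5 FPKM in creeping fat libraries 1 to 3. In control 1 to 3 it was 31.7, 36.9 and 35.6 FPKM. The means were 52.5 ± 2.39 FPKM in creeping fat and 34.7 ± 2.7 FPKM in controls (SD, n = 3 each; exact two-sided permutation p = 0.1, the smallest possible). Tead3 made up 24.4%, 25.1% and 24.6% of the sum in creeping fat libraries 1 to 3, against 17.1%, 12.9% and 15.8% in control 1 to 3 (exact permutation p = 0.1). Tead4 made up 4.74%, 2.04% and 3.72% in creeping fat, against 9.07%, 10.9% and 9.94% in controls (exact permutation p = 0.1). In both shares the groups did not overlap. The share of Tead1 averaged 40.7% ± 4.76 in creeping fat and 51.1% ± 11.9 in controls (SD, n = 3 each; exact permutation p = 0.3), and that of Tead2 31.1% ± 5.26 and 23.7% ± 13.1 in the same order (exact permutation p = 0.4). In control 2 Tead2 made up 38.8% of the sum, against 17.1% and 15.2% in control 1 and 3. Yap1 and Wwtr1 together were 1.2, 1.02 and 1.1 times the TEAD sum in creeping fat libraries 1 to 3, against 1.93, 1.16 and 1.96 times in control 1 to 3.

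**Figure D3:**
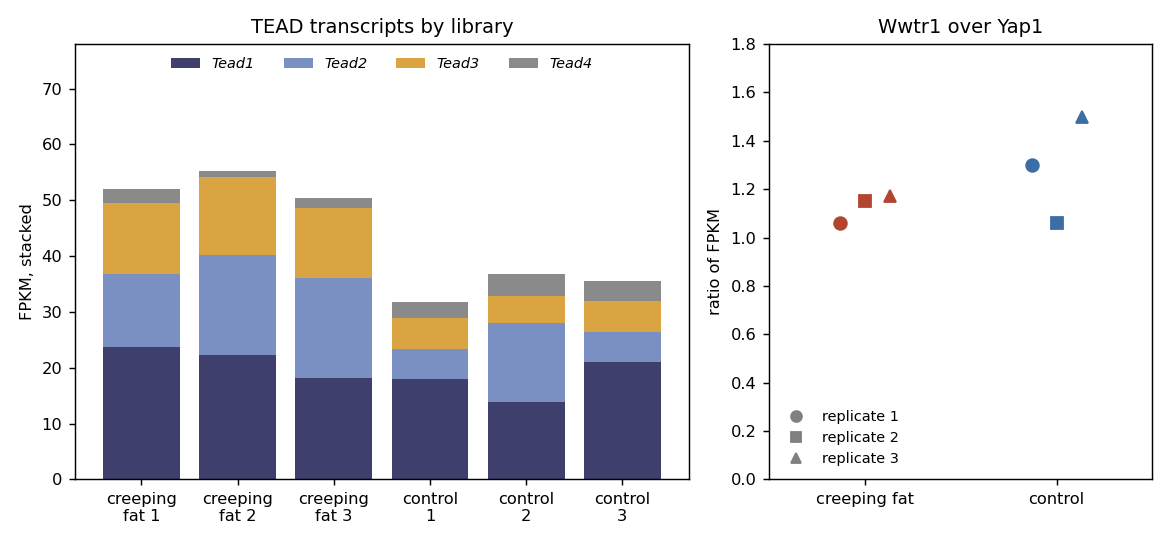
Left, stacked bars of the FPKM of Tead1, Tead2, Tead3 and Tead4 in each library; right, the ratio of Wwtr1 to Yap1 FPKM, 1 point per library, with creeping fat left of control in both. The TEAD sum is 50.5 to 55.2 FPKM in creeping fat and 31.7 to 36.9 FPKM in controls, and the Wwtr1 to Yap1 ratios overlap.

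The genes around these 10 were read from lists of pathway members. The kinase core, which phosphorylates YAP and TAZ, was not called: none of 7 tested genes passed in limma (0 at an unadjusted p under 0.05, and 0 by voom on recovered reads), and the median log2 fold change was 0.11. By the mean over all 6 libraries the most abundant were Mob1a, an activator of the LATS kinases, at 49.5 ± 4.52 FPKM in creeping fat and 39.9 ± 8.59 FPKM in controls (SD, n = 3 each), and Sav1, the scaffold of the MST kinases, at 18.1 ± 2.16 and 23.1 ± 3.09 FPKM in the same order. Their fold changes were 0.33 ± 0.19 and -0.34 ± 0.16 (adjusted p = 0.32 and 0.213).

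Among 16 upstream regulators 2 rose and none fell (median 0.24), beside 9.35% of all tested genes called higher. With 1 library left out, 1 to 6 were called higher and 0 to 1 lower. The 6 were called without control 2, where 22.6% of all tested genes were called higher. Amot, which encodes angiomotin, an inhibitor that binds YAP, stood at 4.45, 4.78 and 5.99 FPKM in creeping fat libraries 1 to 3, against 1.19, 1.07 and 1.65 FPKM in control 1 to 3. It rose by 1.40 ± 0.17 (adjusted p = 0.00409), and by 1.89 with 0.1 in place of the added 1 and 1.95 by voom. Fat4, an atypical cadherin, stood at 8.84, 7.30 and 7.09 FPKM in creeping fat, against 4.14, 4.21 and 3.20 FPKM in controls, and rose by 0.85 ± 0.16 (adjusted p = 0.0141). The call of Fat4 was lost on leaving out creeping fat 1, creeping fat 3 or control 3 (adjusted p = 0.0708, 0.0509 and 0.0608). Of the other angiomotin genes, Amotl2 did not pass, and Amotl1 had a fold change of -0.39 ± 0.21 (adjusted p = 0.261); leaving out control 2 gave -0.58, called lower (adjusted p = 0.0189).

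Of the vestigial-like cofactors that bind TEAD factors, Vgll1 and Vgll2 were listed at 0 in all libraries. Vgll3 and Vgll4 did not pass. Vgll4, which competes with YAP for TEAD factors, stood at 7.22, 6.89 and 7.11 FPKM in creeping fat libraries 1 to 3, against 8.18, 12.5 and 9.67 FPKM in control 1 to 3. Every creeping fat library lay below every control, with a fold change of -0.44 ± 0.17 (adjusted p = 0.132), which passed after median ratio scaling (-0.49, adjusted p = 0.0302) and after quantile normalization (-0.48, adjusted p = 0.0319). Vgll3 stood at 11.8 ± 2.02 FPKM in creeping fat and 8.34 ± 3.51 FPKM in controls (SD, n = 3 each; adjusted p = 0.269).

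Further targets came from a published list of YAP and TAZ targets defined in human cancers, without the 4 that are described above. Of its 18 other genes 17 were tested, 5 rose and none fell, with a median log2 fold change of 0.50. Over all tested genes 9.35% were called higher. Igfbp3, an insulin-like growth factor binding protein, stood at 32.8, 23.8 and 20.8 FPKM in creeping fat libraries 1 to 3, against 7.54, 6.12 and 6.53 FPKM in control 1 to 3, and rose by 1.77 ± 0.19 (adjusted p = 0.00291). Tgfb2, a ligand of the TGF-beta receptors, stood at 5.94, 6.01 and 6.28 FPKM in creeping fat, against 1.39, 1.03 and 1.45 FPKM in controls, and rose by 1.63 ± 0.14 (adjusted p = 0.00141). The groups lay apart in both genes. With 0.1 in place of the added 1, the value of Tgfb2 was 2.16, and by voom it was 2.23. Nt5e, Myof and Arhgef17 rose too, by 1.41, 1.40 and 0.54. The call of Arhgef17 (adjusted p = 0.0418) was lost after median ratio scaling (adjusted p = 0.0632) and on leaving out any 1 library other than control 2 (adjusted p from 0.0767 to 0.175). Without control 2, 8 genes of this list were called higher, beside 22.6% of all tested genes. The other 12 tested genes did not pass and ranged from -0.37 for Crim1 to 0.69 for Ccdc80.

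Of 10 genes that carry mechanical input to the pathway 2 rose and none fell (median -0.04), beside 9.35% of all tested genes called higher. Lmna, whose nuclear lamins scale with tissue stiffness, stood at 71.9, 73.4 and 72.0 FPKM in creeping fat libraries 1 to 3, against 38.8, 25.7 and 32.9 FPKM in control 1 to 3. It rose by 1.15 ± 0.18 (adjusted p = 0.00775), with hardly any spread among creeping fat libraries. Src, a kinase that can phosphorylate YAP, stood at 23.4, 24.2 and 27.0 FPKM in creeping fat, against 7.16, 15.1 and 8.96 FPKM in controls, and rose by 1.24 ± 0.26 (adjusted p = 0.0203). Src missed the threshold with any 1 library other than control 2 left out (adjusted p from 0.0501 to 0.0857). Piezo1, a stretch-gated channel, Rock1, Rock2, Ptk2, Trpv4, Ilk, Rhoa and Itgb1 did not pass.

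Ccn1 and Ccn2 are also known as targets of SRF and as immediate early genes. None of the 4 genes of SRF and its coactivators passed in limma (0 at an unadjusted p under 0.05, and 0 by voom; median 0.22). Srf stood at 12.8 ± 1.47 FPKM in creeping fat and 10.8 ± 1.52 FPKM in controls (SD, n = 3 each), and its coactivator gene Mrtfa at 18.8 ± 2.88 and 14.4 ± 9.44 FPKM in the same order. Their fold changes were 0.23 ± 0.16 and 0.52 ± 0.39 (adjusted p = 0.40 and 0.437), and Mrtfa passed without control 2 (0.99, adjusted p = 0.0058).

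Of 12 immediate early genes 7 rose and none fell (median 1.10), beside 9.35% of all tested genes called higher and 6.81% called lower. An unadjusted p under 0.05 was found for 11 of them, and the share of all tested genes under it is not given here. With 1 library left out, 4 to 10 were called higher: 4 without creeping fat 1 or control 3, and 10 without control 2. Without control 2, 22.6% of all tested genes were called higher. Over all 12812 tested genes 576 were called higher without creeping fat 1 and 626 without control 3, against 1198 with all 6 libraries. Fos stood at 41.2, 51.3 and 31.2 FPKM in creeping fat libraries 1 to 3, against 4.83, 6.46 and 6.87 FPKM in control 1 to 3, and rose by 2.57 ± 0.22 (adjusted p = 0.00133). Fosb stood at 7.96, 13.5 and 7.49 FPKM in creeping fat, against 0.961, 0.662 and 2.12 FPKM in controls, and rose by 2.26 ± 0.31 (adjusted p = 0.0055). As a share of all FPKM, the immediate early genes summed to 0.135%, 0.129% and 0.131% in creeping fat libraries 1 to 3 and to 0.0527%, 0.0714% and 0.0654% in control 1 to 3. Single genes of this list differed in their order among the creeping fat libraries. In creeping fat 2, where Ccn1 and Ccn2 were lowest, Fos was at its highest and Atf3, at 12.4 FPKM, was at its lowest of the group. The part of immediate early transcripts in the rises of Ccn1 and Ccn2 was not tested.

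**Figure D4:**
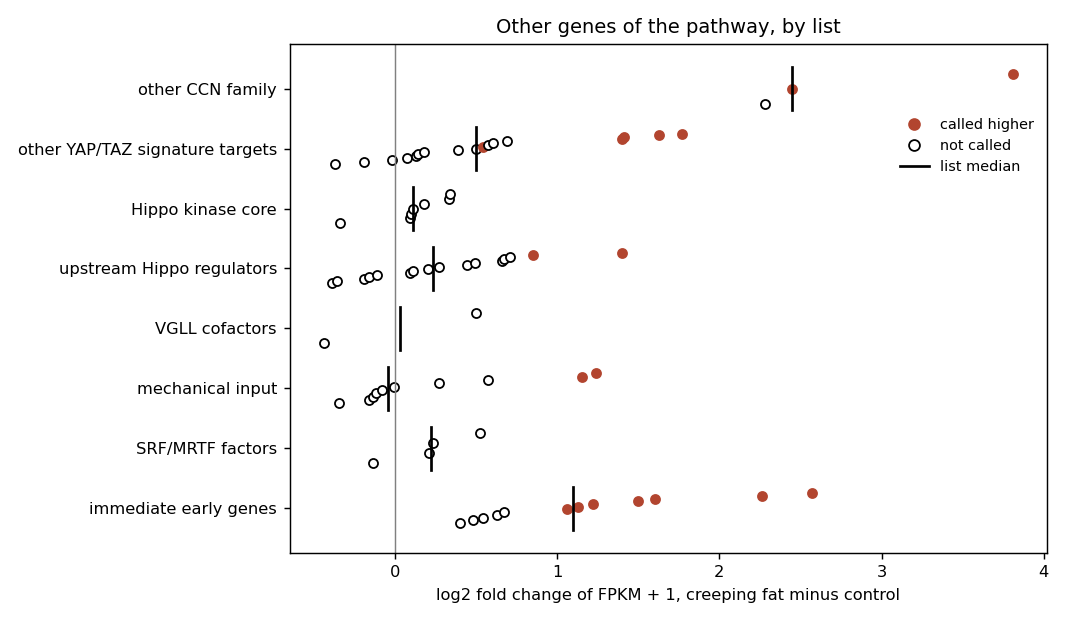
Log2 fold changes of FPKM + 1 (creeping fat minus control) of the tested genes of 8 further lists, 1 point per gene, with a bar at each list's median; red points were called higher. Called genes lie in 5 of the lists, and no gene of the kinase core, of the VGLL cofactors or of the SRF/MRTF factors was called.

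Over all 8 lists together, counting a gene once, 69 of 73 genes were tested, 18 rose and none fell in limma, with a median log2 fold change of 0.44. Among lower genes 2, Nf2 and Vgll4, had an unadjusted p under 0.05, and voom called 0 lower. The background shares of 9.35% and 6.81% given above hold for these counts too.

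The genes with the most similar profiles were named by the distance between their log2(FPKM + 1) values over the 6 libraries, each gene centred on its own mean. This is a description of 6 libraries in 2 groups, with no test. The values were not scaled, so a rank reflects the size of a gene's group difference and of its spread. Nearest to Ccn1 were Mmp3, a matrix protease, Cd14, the lipopolysaccharide co-receptor, Ms4a4a, a membrane protein of macrophages, Fbln1, a matrix glycoprotein, and C3ar1, the receptor of the complement fragment C3a, at root mean square distances of 0.223 to 0.311 log2 units. Ccn2 was the 26th nearest, at 0.447, and Tead3 the 531st. Like Ccn1, Mmp3 was highest in creeping fat 1, at 107, 33.3 and 37.3 FPKM in creeping fat libraries 1 to 3, against 6.76, 7.53 and 11.9 FPKM in control 1 to 3.

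Nearest to Ccn2 were Rerg, Cryaa, Brinp3, Frzb, a secreted Wnt antagonist, and Ecrg4, at distances of 0.221 to 0.309. Their levels were low, and all but Frzb passed the expression filter through creeping fat alone. Cryaa and Brinp3 averaged 0.0134 and 0.0542 FPKM in controls. The added 1 understates the changes of such genes, so their distances to Ccn2 depend on it. Rerg stood at 8.14, 2.87 and 3.43 FPKM in creeping fat libraries 1 to 3, against 0.744, 0.403 and 0.728 FPKM in control 1 to 3. As in Ccn2, creeping fat 1 was the highest library. Among the nearest to Amotl2 were Ahnak, Atraid, Twist2, a fibroblast transcription factor, and Rnf13, at distances of 0.093 to 0.131. Wwtr1 was the 29th nearest to Amotl2, at 0.162, and Yap1 the 247th, at 0.225, whereas Ccn1 and Ccn2 were the 12516th and the 12206th. These ranks in part restate the fold changes, which were near 0 for Amotl2, Wwtr1 and Yap1 and large for Ccn1 and Ccn2.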

How the data were processed

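The authors deposited 1 table of FPKM values for 22134 gene symbols in 6 libraries, with no counts. Per the labels' protocols, total RNA was depleted of ribosomal RNA and made into stranded libraries. Per the submitters' processing notes the genome build was mm10. Aligner, counting program, annotation and strand setting: not given in the sources used here. Reads of genes that overlap on opposite strands may therefore be mixed.

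Group and replicate number came from the sample titles. The 12812 genes that reached 1 FPKM in 3 or more libraries were compared on log2(FPKM + 1) in limma 3.58.1 (R 4.3.3) with the group as the only term, a mean-variance trend, two-sided tests and Benjamini-Hochberg adjustment over all of them. The added 1 understates changes of low genes. The composition measures were compared by exact permutation. The limma script was tested on simulated data.

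Whole reads were recovered from the FPKM values, within 0.002 reads, for 18713 of the 18714 genes above 0, by solving for gene length and library total; 291 of 304 short genes gave the same total. Reads in the table's genes made up 99.57% to 99.65% of the totals. For a gene of 1000 bases, 3 reads correspond to 0.0691 to 0.0962 FPKM, a floor for counting error only. Limma's voom on these reads was an alternative added after seeing the data.

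The members and lists were chosen with earlier results of these data known. Named were all 10 members, up to 2 called genes in each direction of each further list (or the 2 most abundant where none was called), and the 5 genes with profiles nearest to Ccn1, Ccn2 and Amotl2, of which 1 is not reported here; other genes of those lists were named after their values were seen. Marker lists of adipocytes, fibroblasts, macrophages, endothelium, seminal vesicle, pancreas, lymphocytes and skeletal muscle served as tissue checks. Other markers gave these summed shares of the FPKM total: smooth muscle 0.129% to 0.232% in creeping fat and 0.0547% to 0.167% in controls, mesothelial 0.0144% to 0.0279% and 0.00455% to 0.0219%, prostate 0.0829% to 0.109% and 0.00547% to 0.0117%, and epithelium 0.0126% to 0.0324% and 0.00546% to 0.0113%, with creeping fat first. Positions are from GENCODE M21 (GRCm38) and promoters from RefSeq (GRCm38.p6). Alternatives were the pseudocount, the filter, 3 other scalings, no variance trend, a replicate block, each library left out, and creeping fat 2 and control 2 left out together.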

Additional observations from a re-analysis of the deposited data

How the results depend on the processing

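Ccn1 and Tead3 passed under all 16 alternatives tried, with log2 fold changes of 2.11 to 2.88 and 1.06 to 1.30 (adjusted p from 0.000781 to 0.0388 and from 0.000987 to 0.0299). Ccn2 passed under 10 of 16 (1.2 to 2.18), and Tead2 only under the 2 that leave out control 2. Tead4 passed under none of its 15 alternatives (-0.98 to -0.41). Near 0, signs turned: Amotl2 was 0.02 after quantile normalization and 0.04 with the gland and pancreas genes left out, and with 1 library left out Amotl2 ranged from -0.25 to 0.19, Ankrd1 from -0.12 to 0.63, Yap1 from -0.0008 to 0.20 and Wwtr1 from -0.30 to 0.14. With 1 library left out, 2 to 4 of the 10 genes were called higher. Over all genes 576 to 2896 were then called higher and 287 to 1857 lower, against 1198 and 872 with all 6 libraries; the extremes were without creeping fat 1 and without control 2. Of the further lists' genes 11 to 29 were called higher and 0 to 1 lower, against 18 and 0. Without creeping fat 2 and control 2 the counts were 2713 and 1731 over all genes and 29 and 1 over the lists, and the difference in the share of Tead4 was -5.27 percentage points, against -6.46. With 1 library left out the share differences ranged from -17.2 to -6.38 for Tead1, 3.13 to 14.9 for Tead2, 8.28 to 10.4 for Tead3 and -7.08 to -5.72 for Tead4. Of the lists' genes 1 was called lower after median ratio scaling and after quantile normalization. The median of all genes was 0.131 without control 2 and 0.15 without creeping fat 2 and control 2, against 0.017. The cause of these changes was not tested.

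Same-numbered libraries did not deviate together (correlations of -0.181, -0.18 and -0.081 for numbers 1 to 3), so the number pairs nothing known; no creeping fat library correlated best with the control of its own number. With the replicate block 636 genes were called higher and 378 lower, and the calls of Ccn2, Fat4 and Src were lost (adjusted p = 0.0655, 0.0526 and 0.0501); the block changed no other call among the 10 genes and the 16 genes of the lists named by rule. Of the lists' other genes named in the text, Ccn5 passed (0.0207) and Arhgef17 did not (0.156). Voom on recovered reads called 1197 and 881. Depth limits mainly Ankrd1 and Tead4, which rest on as few as 24 and 121 reads in 1 library.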
